A study of Mus musculus with 6 samples.

Results

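The clustered histone genes are the rows of the deposited count files whose symbols begin with Hist1h, Hist2h, Hist3h or Hist4h and go on with a core or linker histone type (H1, H2A, H2B, H3 or H4). Of 70 such rows among 55433 genes, the 21 with at least 10 counts in 3 or more of the 6 libraries were followed. RNA came from whole spinal cords of C57BL/6J mouse embryos at E13.5. All 6 libraries carry the NFIA-ff genotype, and 3 are labelled control, while the other 3 also carry Nestin-cre and are labelled NFIAcKO. Nestin-cre expresses cre recombinase in neural progenitors, no library carried cre without NFIA-ff, and the cre transgene and the deletion cannot be told apart in this design. The labels give no litters, and the libraries were made with a stranded mRNA kit.

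Clustered histone genes encode the bulk of the histones that package newly copied DNA, and most are transcribed during S phase. Their mRNAs are the textbook exception to polyadenylation. They end in a short stem-loop that is bound by the protein SLBP, and the precursor is cut just after it with the help of the U7 small nuclear ribonucleoprotein. Some clustered genes also make polyadenylated mRNAs from a signal farther downstream, which is known from differentiated cells. An mRNA kit that selects poly(A) tails captures the second kind and mostly misses the first, so the counts given here are not a measure of all histone mRNA.

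The stem-loops are shown because they are the feature that separates these genes from other mRNAs. They were searched on the sense strand after the stop codon of the GENCODE M21 transcripts (GRCm38), as 16 bases that open with the arm GGNNCT. A loop of 4 bases that begins with TT had to follow, and then 6 bases that are the reverse complement of the arm. A match was found in 17 of the 21 members, 21 to 54 bases after the stop codon, and in 44 of the 70 rows. Among 17769 other protein-coding genes, 3 (0.0169%) had a match in the 200 bases after the stop codon. The 6 forms found among members are printed below with 5 flanking bases on each side, and the capitals mark the stem-loop.
Hist3h2ba: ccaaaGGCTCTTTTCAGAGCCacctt
Hist3h2a: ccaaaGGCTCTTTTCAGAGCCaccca
Hist1h1c: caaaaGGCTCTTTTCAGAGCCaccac
Hist2h2ac: aaaaaGGCTCTTTTTAGAGCCaccaa
Hist1h3c: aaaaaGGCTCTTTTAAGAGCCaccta
Hist1h4d: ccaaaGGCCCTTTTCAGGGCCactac
Hist1h4i: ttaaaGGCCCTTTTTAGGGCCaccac
Hist1h4j: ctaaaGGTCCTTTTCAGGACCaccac
The form shared by Hist3h2ba, Hist3h2a and Hist1h1c occurred in 8 members, of types H1, H2A, H2B and H3. The stem of all 6 matched H4 members differed from it, with GGCCCT in 5 of them and GGTCCT in Hist1h4j. In Hist3h2ba the stem-loop lies on chromosome 11 at chr11:58949349-58949364, on the plus strand in the annotated 3′ UTR. No match was found in the annotated transcripts of Hist2h2be, Hist1h2bc, Hist2h2ab and the pseudogene Hist3h2bb-ps, and the model of Hist2h2ab stops at its stop codon.

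The annotated transcripts of the most abundant members ran on well past the stem-loop. The model of Hist3h2ba continues for 169 bases after it and that of Hist3h2a for 1643 bases, and each has the poly(A) signal AATAAA within its last 60 bases. Hist1h1c has the same arrangement, with 840 bases after the stem-loop, and so do Hist1h4j, Hist2h4 and Hist4h4. Hist2h2be has the signal and no stem-loop. In all, 7 of 21 members and 13 of 70 rows had AATAAA in that window on the sense strand, as did 60.7% of 21607 other protein-coding genes. Those 13 rows held 90.4% of all counts of clustered histone genes. Most of these lay in Hist3h2ba, Hist3h2a and Hist2h2be, with 22149, 7563 and 5276 of 40145 counts. Medians over the 13 rows were 61 counts and 1630 exonic bases, against 16 counts and 485 bases in the 57 rows without the signal. Many of the 57 are near-copies of other genes. Among rows with at least 50% of their 50-base windows unique to the gene, medians were 74 counts and 1236 bases in 10 rows with the signal. They were 36.5 counts and 734 bases in 24 rows without it. At the other end, the 22 rows whose models stop within 100 bases after the stem-loop held 0.952% of all clustered histone counts. Their median exonic length was 483.5 bases. The counts are per gene and do not separate reads of the stem-loop form from reads of the polyadenylated form.

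Clustered histone genes took 0.0111 to 0.0177% of the counts assigned to genes, or 5274 to 9101 counts in a library. Depth was 43393053 to 51465763 counts per library. The 21 members held 98.4% of those histone counts, and the 6 members with at least 600 counts in all held 95.1%. Of the 49 rows outside the rule, 12 were at 0 in every library, where a count of 0 allows up to 3 counts (0.0570 to 0.0683 CPM, for counting error only). CPM stands for the count divided by the TMM-scaled library size in megareads. At the edge of the rule, Hist1h4c was kept with 22, 14 and 12 counts in the libraries that passed, and Hist1h4k was left out with 18 and 16 in the only libraries above 10. Reads that aligned to several places were not assigned to genes, and these genes are near-copies of each other. The 22 rows with fewer than 25% of their 50-base windows unique to the gene held 0.359% of the histone counts. Of these, 5 rows had no unique window, Hist2h2aa1, Hist2h2aa2, Hist2h2bb, Hist2h3b and Hist2h3c1, and had no count at all. Each of the 5 is also covered over its whole exonic length by another annotated gene at the same place. Genes outside the clusters were compared on either strand, so this measure does not separate near-copies from overlapping genes. A low count in rows with few unique windows does not show low expression.

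**Figure D1:**
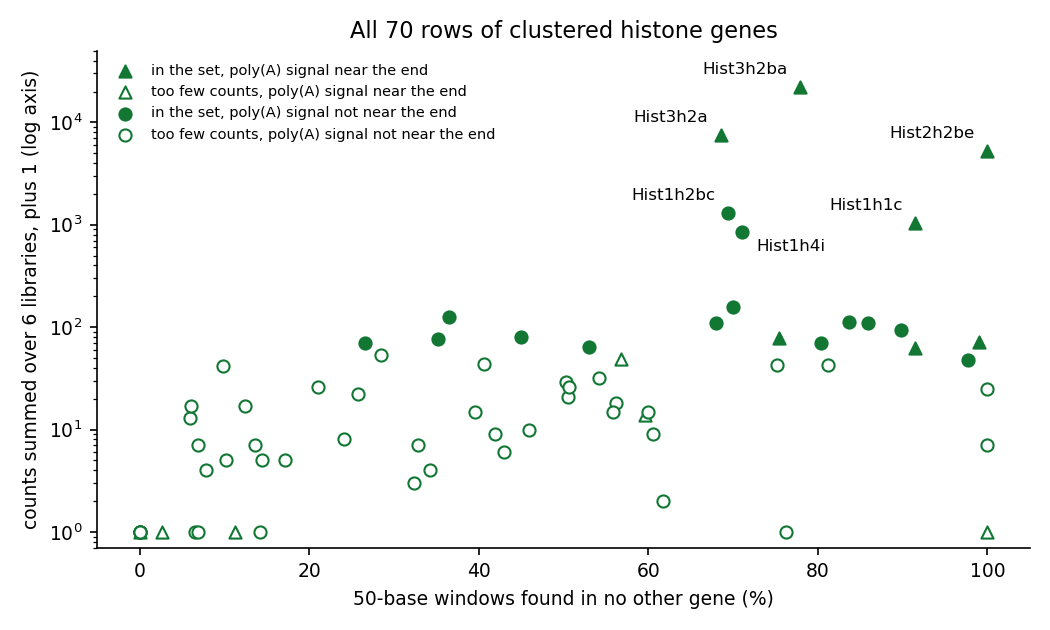
Counts of each of the 70 rows summed over the 6 libraries, plus 1 (log axis), against the percentage of the gene's 50-base windows found in no other annotated gene. Filled marks are the 21 members and triangles the 13 rows with the poly(A) signal in their last 60 bases; the 6 named members stand above all others, and no row with fewer than 25% unique windows is a member.

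Nfia, the targeted gene, had counts of 2641, 3110 and 3683 in the control libraries against 5144, 5016 and 5636 in the NFIAcKO libraries, which goes against the label. Because exons outside the deleted part are counted too, this does not test the deletion. All directions below are those of the libraries labelled NFIAcKO against those labelled control. Genes of neural progenitors and of neurons were present in every library, with all 10 markers of each list tested. Genes "rose" or "fell" at a Benjamini-Hochberg adjusted p under 0.05 in edgeR's quasi-likelihood test over 17711 genes.

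Among the histones of the nucleosome core, the H2B gene Hist3h2ba was the most abundant member and the only one that passed the test. Hist3h2ba is a single-exon gene of 614 bases in the small Hist3 locus (chromosome 11, 58948920 to 58949533, plus strand, GRCm38). Its counts were 3886, 5397 and 3712 in the control libraries, in replicate order, against 3024, 3452 and 2678 in the NFIAcKO libraries. All 3 libraries labelled NFIAcKO lay below all 3 labelled control, and within each group replicate 2 was highest. The mean level fell from 90.3 ± 11.4 CPM (SD, n = 3) to 64.6 ± 9.11 CPM, a fold of 0.715 (95% interval 0.608 to 0.842; log2 fold change -0.48, SE 0.11, adjusted p = 0.0138). The call was lost without NFIAcKO replicate 1 (-0.46, adjusted p = 0.079) and without NFIAcKO replicate 3 (-0.41, adjusted p = 0.0682). It was also lost when a trend with transcript length and GC content was removed from each library (-0.23, adjusted p = 0.0583). Short transcripts were lower in the libraries labelled NFIAcKO in general, and the 2188 tested genes with the shortest exonic length, up to 1484 bases, had a median log2 fold change of -0.23. In whole tissue, fewer cells that express a gene and less RNA per cell cannot be told apart.

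For its neighbour Hist3h2a, an H2A gene, no difference was found. Hist3h2a had 1234, 1512 and 1078 counts in the libraries labelled control and 1136, 1466 and 1137 in those labelled NFIAcKO. The groups overlapped, with NFIAcKO replicate 2 highest of all 6 once scaled to depth. The means were 26.7 ± 3.03 and 26.4 ± 4.56 CPM (SD, n = 3), a fold of 0.99 (95% interval 0.822 to 1.19, adjusted p = 0.953). Within a library, the count of Hist3h2ba over that of Hist3h2a was 3.15, 3.57 and 3.44 in the control group against 2.66, 2.35 and 2.36 in the NFIAcKO group. Those ratios did not overlap between groups. This ratio does not depend on scaling to depth, was chosen after its values were seen and was not tested. Hist3h2a shares 708 bases of exon on the same strand with Trim17, so part of its reads may have been left unassigned as ambiguous.

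For Hist2h2be, which encodes an H2B variant known from olfactory neurons, no difference was found either. Its counts were 796, 1032 and 854 in the libraries labelled control and 839, 932 and 823 in those labelled NFIAcKO. The means were 18.7 ± 0.79 and 18.3 ± 1.59 CPM (SD, n = 3), a fold of 0.978 (95% interval 0.838 to 1.14, adjusted p = 0.871). The intervals of Hist3h2a and Hist2h2be exclude a fall as large as the estimate for Hist3h2ba. The third abundant H2B gene, Hist1h2bc, had 227, 289 and 211 counts in control replicates and 215, 206 and 163 in NFIAcKO replicates. Scaled to depth, its groups did not overlap, at 5.07 ± 0.483 and 4.11 ± 0.574 CPM, but the difference did not pass (log2 fold change -0.30, adjusted p = 0.232).

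**Figure D2:**
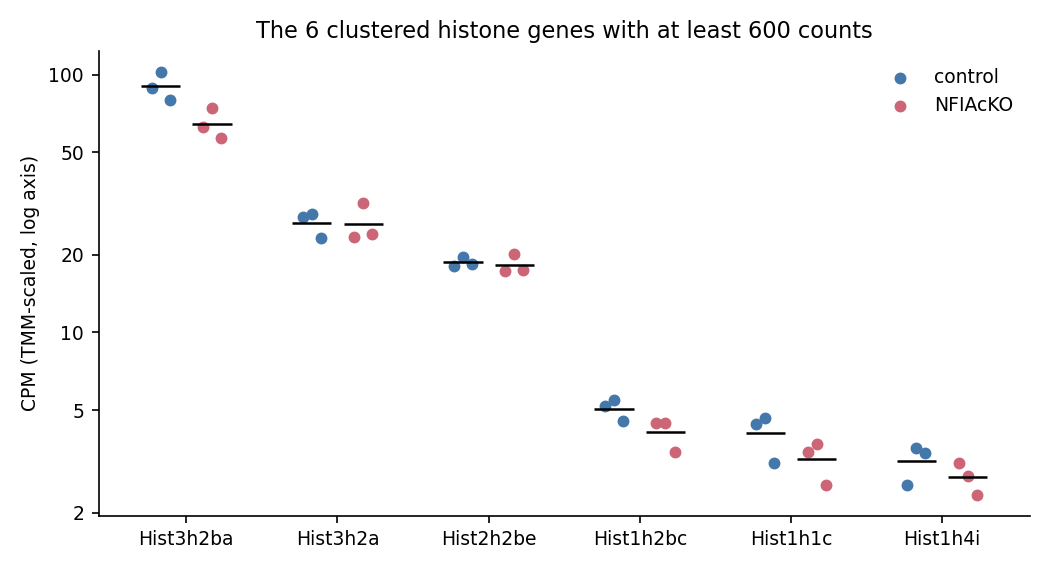
Level of the 6 members with at least 600 counts in all, in CPM on TMM-scaled library sizes (log axis); each point is a library, in replicate order from left to right, and each line a group mean. Hist3h2ba lies at 90.3 CPM in the control group and 64.6 CPM in the NFIAcKO group with no overlap, while the points of Hist3h2a and Hist2h2be overlap.

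Among linker histones, Hist1h1c, which encodes H1.2, had 193, 246 and 145 counts in the libraries labelled control and 166, 171 and 121 in those labelled NFIAcKO. The groups overlapped through control replicate 3, and the difference did not pass (log2 fold change -0.33, SE 0.20, adjusted p = 0.287). Hist1h1e, the gene of H1.4, had 14, 23 and 26 counts against 14, 20 and 11 (adjusted p = 0.492), and it shares 496 bases of exon with the long model of Hist1h2be on the same strand. Hist1h1d, the gene of H1.3, was too low to be tested, with 10, 10 and 9 counts against 10, 8 and 0, where the 0 allows up to 0.0635 CPM. The only abundant H4 gene, Hist1h4i, had 112, 187 and 159 counts against 151, 128 and 111, with overlapping groups (-0.21, SE 0.20, adjusted p = 0.512).

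Scaled to the length of annotated exon, the control level of Hist3h2ba was 147 CPM per kilobase. Hist3h2a followed at 12.4, Hist2h2be at 7.14, Hist1h2bc at 4.38, Hist1h4i at 4.37 and Hist1h1c at 2.6 CPM per kilobase. Hist1h2bc and Hist1h4i did not differ in this order beyond the spread of their replicates. The order is approximate, because the counts join mRNAs that end at the stem-loop with longer ones. Windows unique to the gene also differed, from 68.5% in Hist3h2a to 100% in Hist2h2be. All other members were at or below 1.32 CPM per kilobase, which was the control level of the pseudogene Hist3h2bb-ps. The annotated length of Hist1h1d (7425 bases) and of Hist1h2be (4446 bases) may be longer than the transcripts present, and their values per kilobase would then be too low.

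The 15 members with under 600 counts in all were seen with 0 to 41 counts in a library, and none passed. Of the H2A genes, Hist2h2ab had 13, 17 and 21 counts in the libraries labelled control and 11, 7 and 7 in those labelled NFIAcKO. Its groups did not overlap and its fold was 0.497, but the interval ran from 0.254 to 0.97 (adjusted p = 0.148), and it shares 303 bases of exon with Gm15444 on the opposite strand. The other low H2A genes overlapped between groups, with 25, 9 and 13 counts against 12, 13 and 8 for Hist2h2ac and 12, 17 and 32 against 11, 22 and 15 for Hist1h2ac. Of the H2B genes, the pseudogene Hist3h2bb-ps had 26, 41 and 22 counts against 20, 28 and 19, and Hist1h2be had 22, 19 and 15 against 29, 17 and 10, so that neither separated the groups.

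The 3 H3 genes that were followed, which encode the replication-coupled H3 proteins, were all low. Hist2h3c2 had 22, 37 and 14 counts in the libraries labelled control and 14, 23 and 14 in those labelled NFIAcKO (adjusted p = 0.481). Hist1h3e had 12, 13 and 10 against 16, 4 and 14 (adjusted p = 0.973), and Hist1h3c had 9, 12 and 16 against 12, 10 and 4 (adjusted p = 0.565). Groups overlapped for each of them. Of the low H4 genes, Hist1h4c had 9, 22 and 14 counts against 9, 12 and 3 (adjusted p = 0.301). Estimates above 0 were found for Hist1h4j, with 12, 15 and 8 counts against 16, 11 and 15, for Hist1h4d, with 10, 17 and 19 against 15, 17 and 15, and for Hist2h4, with 13, 8 and 14 against 6, 22 and 8. None of these H4 genes passed, and their groups overlapped. Hist4h4, the lone gene of its locus on chromosome 6, had 11, 24 and 6 counts against 2, 10 and 8 and was not tested. At these counts the median SE of the 13 tested genes was 0.46 on the log2 scale, so changes of the size seen in Hist3h2ba were not detectable. Their depth-scaled counts were summed with those of the 2 untested members. The sums were 5.01, 5.39 and 5.14 CPM in control replicates and 4.07, 4.84 and 3.2 CPM in NFIAcKO replicates, and carry no test. Hist2h2ab, Hist1h4c, Hist2h4, Hist4h4, Hist1h1d and Hist1h3e reached 10 counts in more control than NFIAcKO libraries, and Hist1h4j in fewer. The count rule can thus favour the control sums. With the rows outside the rule added, the groups overlapped, at 7.77, 8.32 and 6.65 CPM against 6.03, 7.23 and 5.10 CPM.

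Over all types, 1 of 19 tested members fell and none rose, where 6.08% of all tested genes fell and 7.86% rose, 13.9% in all. DESeq2 gave an adjusted p for only 6 of the 19, the abundant members, and of these 1 fell and 0 rose. In edgeR 2 of the 19 members had an unadjusted p under 0.05, against 29.8% of all tested genes. Groups did not overlap for 3 of the 19, Hist3h2ba, Hist1h2bc and Hist2h2ab, all lower in the libraries labelled NFIAcKO, against 33.4% of all tested genes (17.3% higher and 16.1% lower). Estimates were below 0 for 16 of 19 members and for 9050 of all 17711 tested genes. The median log2 fold change was -0.33 for the members, against -0.01 for all tested genes. Among the 2188 tested genes with the shortest exonic length, 1554 estimates were below 0, with a median of -0.23. By type the median was -0.40 for 2 H1 genes, -0.43 for 4 H2A genes, -0.30 for 5 H2B genes, -0.48 for 3 H3 genes and 0.04 for 5 H4 genes. With the trend in length and GC content removed, 10 of 19 estimates were below 0 and 9 above, where 9083 of all 17711 tested genes were above. The median of the members was then -0.10, against 0.0076 for all tested genes. No member was called then in either direction, where 3.82% of all tested genes were higher and 3.87% lower, 7.69% in all.

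**Figure D3:**
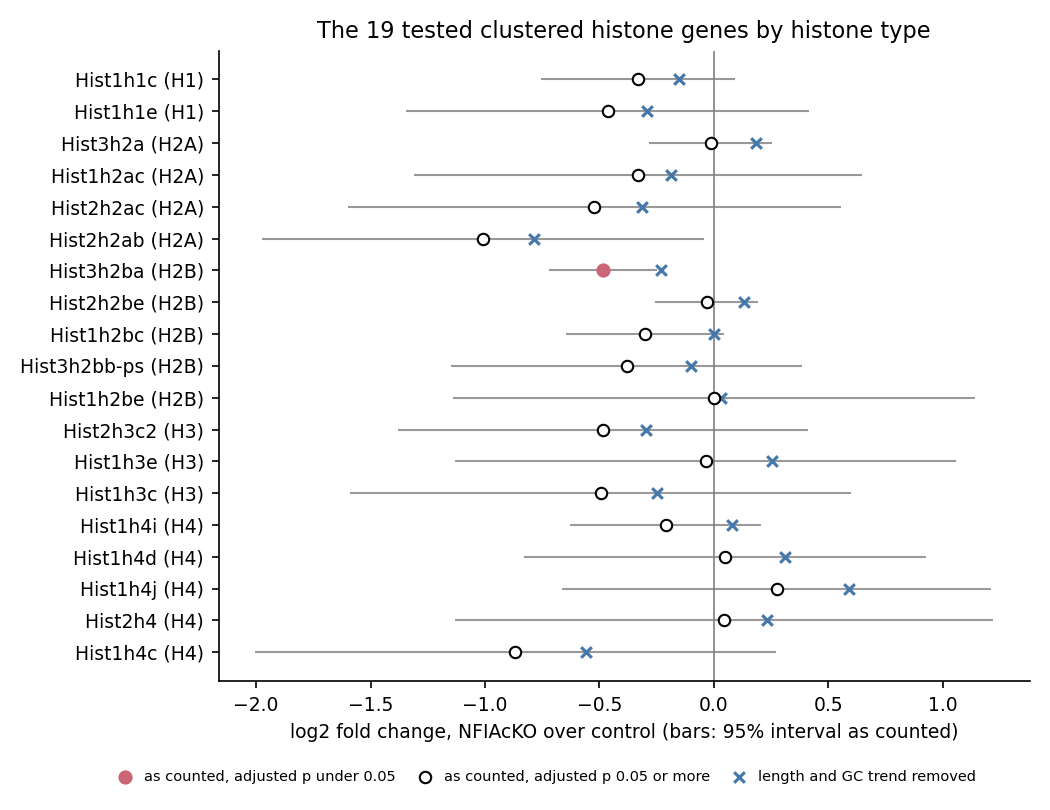
Log2 fold change (NFIAcKO over control) of the 19 tested members, grouped by histone type, with 95% intervals from edgeR as counted; crosses show the estimate after removal of the length and GC trend. Only Hist3h2ba passed as counted (-0.48), and its estimate moved to -0.23 with the trend removed.

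The summed level of all 70 rows followed Hist3h2ba, which made up most of it. The sum was 155, 173 and 139 CPM in the control group against 120, 144 and 112 CPM in the NFIAcKO group, so the groups overlapped between control replicate 3 and NFIAcKO replicate 2. Without Hist3h2ba the sums were 66.1, 70.4 and 59.3 CPM against 57.8, 69.9 and 55.0 CPM. By type, H2B made up 72.7% of all histone counts, H2A 19.9%, H4 3.34%, H1 3.06% and H3 0.991%. NFIAcKO replicate 3 was the lowest library for 4 of the 6 abundant members, and for 11 of the 19 tested ones. Control replicate 2 was the highest for 4 of the 6. Read shares that bear on counting also differed between the groups without overlap. Ambiguous reads, which overlap more than 1 gene, were 4.14 to 4.22% of the total in the control group and 3.90 to 4.01% in the NFIAcKO group. For reads with several alignments the shares were 9.41 to 10.5% and 8.94 to 9.13%. The part of these shares in the histone values, and in the ratio of Hist3h2ba to Hist3h2a, was not tested.

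**Figure D4:**
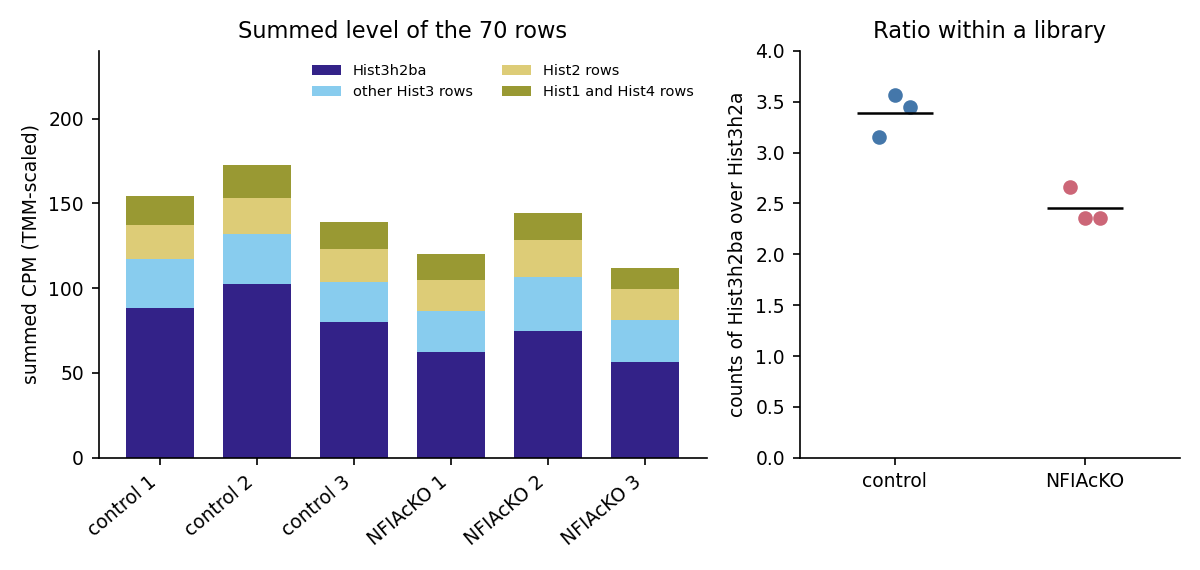
Left, the summed CPM of the 70 rows in each library, stacked by locus with Hist3h2ba apart; right, the count of Hist3h2ba over that of Hist3h2a within each library, with lines at the group means. The sums overlap between groups (139 to 173 against 112 to 144 CPM), and the ratios do not (3.15 to 3.57 against 2.35 to 2.66).

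Markers of the cell types that a whole spinal cord can hold were read from the same fit, and no gene of these lists was at 0 in every library. Of 10 neural progenitor markers 3 fell and 1 rose, so their sum, at 3116 to 3298 CPM in libraries labelled control and 2974 to 3317 CPM in those labelled NFIAcKO, joins opposite changes. In log2 units, Fabp7, Slc1a3 and Hes5 fell by 0.57, 0.38 and 0.38 (adjusted p = 0.00749, 0.027 and 0.0442), and Nes, the gene of nestin, rose by 0.47 (adjusted p = 0.0289). Of these, Slc1a3 was also called with the trend removed (-0.52, adjusted p = 0.0243). Of 10 neuron markers 4 rose, Dcx, Rbfox3, Elavl3 and Syt1, by 0.45, 0.41, 0.40 and 0.32, and none fell. Their sum was 9417 to 9815 and 10635 to 11093 CPM, without overlap. With the trend removed 4 neuron markers were called higher, among them Dcx, Rbfox3 and Elavl3 but not Syt1 (0.20, adjusted p = 0.0619).

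Erythroid, endothelial and other markers also moved. Of 11 erythroid markers 2 rose and none fell. Hba-x, an embryonic globin gene, rose 1.44-fold (adjusted p = 0.0046) and was called in all 6 fits that dropped a single library, and Slc4a1 rose 1.54-fold (adjusted p = 0.0165). The erythroid sum overlapped, at 1887 to 2142 and 1673 to 2301 CPM. Of 6 endothelial markers 3 rose and 2 fell. In log2 units, Cdh5 and Kdr rose by 0.55 and 0.49, while Cldn5 and Esam fell by 0.30 and 0.34. The third that rose was Pecam1 (0.27, adjusted p = 0.0473), named after its value was seen. The endothelial sum of 285 to 330.0 and 343 to 372 CPM thus joins opposite changes as counted. With the length and GC trend removed, Cdh5 and Kdr were still called higher (adjusted p = 0.0145 and 0.0383). Cldn5, Esam and Pecam1 were then not called (-0.16, -0.27 and 0.18, adjusted p = 0.146, 0.0933 and 0.114). None of 6 microglia, 7 mesenchyme and muscle or 6 dorsal root ganglion markers passed in edgeR, where 4, 0 and 0 had an unadjusted p under 0.05. Summed microglia markers did not overlap, at 67.0 to 76.2 and 55.1 to 62.6 CPM. Sums of the other lists overlapped, at 818 to 1116 and 1005 to 1400.1 CPM for mesenchyme and muscle and at 17.9 to 44.7 and 21.2 to 29.4 CPM for dorsal root ganglion. Dropping a single library ended the call of Fabp7 in 1 of 6 fits, of Dcx, Rbfox3 and Kdr in 3, of Hes5, Elavl3, Syt1, Slc4a1 and Cldn5 in 4, and of Slc1a3, Nes and Esam in 5, while Cdh5 was called in all 6. The part of these cell types in the histone values was not tested.

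Replication-independent histone variants are mostly encoded outside the clusters by polyadenylated mRNAs. The list of 12 also holds H3f3c, annotated as a processed pseudogene, and H2afx, which is known to make a stem-loop mRNA besides a polyadenylated one. Of the 12, 3 fell, none rose and 9 did not pass, with a median of -0.18, or -0.015 with the length and GC trend removed. For H3f3a, a gene of the replacement histone H3.3, the level fell from 414 ± 74.7 to 288 ± 23.4 CPM (SD, n = 3), a log2 fold change of -0.52 (adjusted p = 0.0123). It was called with the length and GC trend removed as well (-0.38, adjusted p = 0.0258), but not without NFIAcKO replicate 1 or NFIAcKO replicate 3 (adjusted p up to 0.0716). H3f3a overlaps genes on the opposite strand. H2afz and H2afv, the genes of the variant H2A.Z, fell by 0.40 and 0.33 (adjusted p = 0.02 and 0.0327), but neither was called after the trend was taken out (-0.19 and -0.10, adjusted p = 0.13 and 0.43). Dropping a single library ended the call of H2afz in 3 of 6 fits and that of H2afv in 4. H1f0, the linker histone of resting cells, stood at 304 and 262 CPM (adjusted p = 0.136). H2afx, the variant phosphorylated at DNA breaks, stood at 85.5 and 92.5 CPM (adjusted p = 0.439).

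Of 17 tested genes of histone mRNA processing, 1 fell and none rose, with a median of 0.09. Slbp, the stem-loop binding protein, stood at 43.3 ± 0.582 and 41.6 ± 0.451 CPM (SD, n = 3; fold 0.96, 95% interval 0.855 to 1.08, adjusted p = 0.663). Npat, the coactivator of histone gene transcription, stood at 32.9 and 35.0 CPM (adjusted p = 0.568). The gene that fell was Lsm10, a subunit of the U7 particle, from 12.5 ± 1.22 to 8.76 ± 1.32 CPM (-0.51, adjusted p = 0.0238). Dropping a single library ended this call in 4 of 6 fits, as did taking out the trend (-0.27, adjusted p = 0.154). Upf1, Sympk and Casp8ap2, next by p in this list, stood at 0.32, 0.24 and 0.19 and did not pass (adjusted p = 0.0597, 0.0791 and 0.122). Among 17 histone chaperones, which escort histones to and from DNA, 3 rose and none fell. Atrx rose by 1.38-fold, Supt16 by 1.31-fold and Cabin1 by 1.22-fold (adjusted p = 0.00845, 0.0497 and 0.028). None of the 3 was called after the trend was taken out (adjusted p = 0.0826, 0.119 and 0.891), but their estimates moved unequally. On the log2 scale Supt16 was at 0.39 with and without the trend, Atrx went from 0.46 to 0.21 and Cabin1 from 0.29 to -0.018. Dropping a single library ended the call of Atrx in 2 of 6 fits and those of Supt16 and Cabin1 in 5 each. Ubn1, the next chaperone by p, did not pass (0.25, adjusted p = 0.0575).

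S phase is when most clustered histone mRNA is made. Of 32 S phase genes 1 fell, none rose and 31 did not pass, with a median of 0.08. The gene that fell was Rfc4, a clamp loader subunit (-0.40, adjusted p = 0.038). Its estimate was -0.10 after the trend was taken out (adjusted p = 0.608). It was also not called in 5 of 6 fits that dropped a single library, with estimates of -0.46 to -0.33 over the 6. Rfc3, Cdc6 and Mcm10, next by p, stood at -0.31, 0.53 and 0.39 and did not pass (adjusted p = 0.0636, 0.0648 and 0.0813). Of 19 tested mitosis genes 1 rose and none fell, with a median of 0.29. That gene was Mki67, the proliferation marker, at 44.4 ± 13.1 and 82.2 ± 7.13 CPM (SD, n = 3), a log2 fold change of 0.89 (adjusted p = 0.0225). With the trend taken out Mki67 missed the threshold at an estimate of 0.72 (adjusted p = 0.0657). Dropping a single library ended the call in 5 of 6 fits, with estimates of 0.74 to 1.16 over the 6. When libraries were paired by replicate number, the mitotic kinetochore genes Cenpf and Cenpe were called higher as well (adjusted p = 0.0247 and 0.0157). Neither passed in the main fit (0.73 and 0.80, adjusted p = 0.0707 and 0.111) or with the trend taken out (adjusted p = 0.243 and 0.200). The labels name no pairs. Of 20 other RNAs known to lack poly(A) tails, only Rn7sk had enough counts to be tested. It had 58, 132 and 43 counts in the libraries labelled control and 44, 54 and 63 in those labelled NFIAcKO (adjusted p = 0.355), with overlapping groups.

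**Figure D5:**
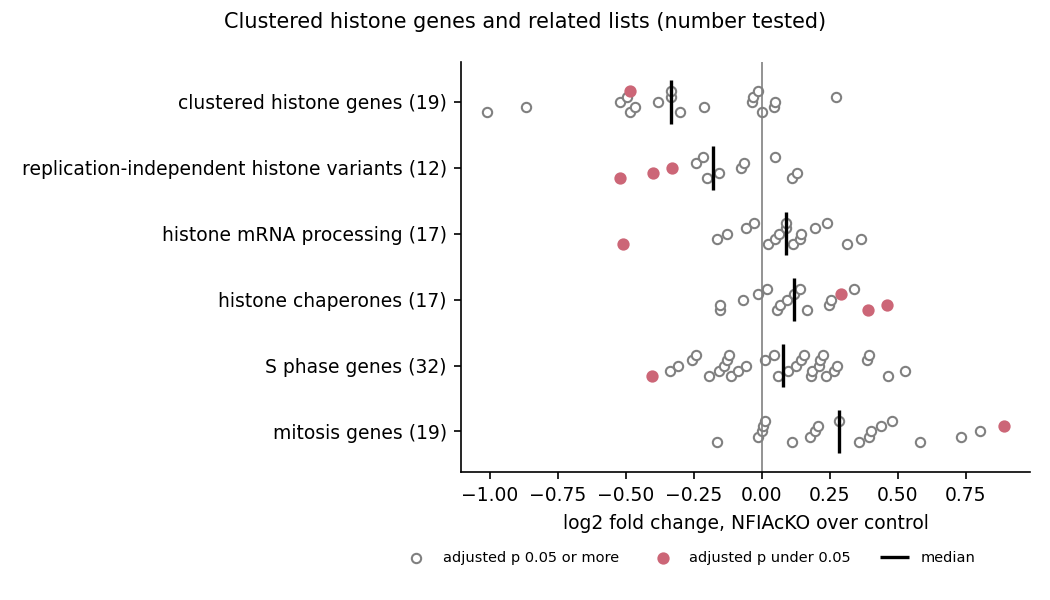
Log2 fold change (NFIAcKO over control) of every tested gene of the clustered histones and of 5 related lists, each point a gene, filled where the adjusted p was under 0.05, with a line at the median. The medians are -0.33 for clustered histones, -0.18 for replication-independent variants, 0.09 for mRNA processing, 0.12 for chaperones, 0.08 for S phase and 0.29 for mitosis. With the length and GC trend removed (not drawn) they are -0.10, -0.015, 0.053, 0.080, 0.052 and 0.307, in the same order. Median exonic lengths run from 1020 bases for clustered histones to 6076 bases for mRNA processing.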

How the data were processed

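The authors deposited raw counts for each gene symbol, whole numbers in every file, with a separate file for every library. STAR 2.6.1a, HTSeq, DESeq2 and mm10 appear in the submitters' processing notes, without their roles. For the annotation release and the strand setting, nothing is stated in the sources used here. The 5 HTSeq summary lines (16.9 to 19.4% of a file) were left out. Libraries of a group differed by more than sampling noise (chi-square per degree of freedom 11.9 to 50.2). The p-values set the difference between groups against the spread between these libraries, moderated over all genes. No label says that the libraries came from separate litters, so whether a difference holds across litters is not known.

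Counts were fitted in edgeR 4.0.16 (R 4.3.3, TMM scaling, filterByExpr, robust quasi-likelihood F test, tested on simulated data), with Benjamini-Hochberg adjustment over 17711 genes. Each SE was taken from the F statistic and the log2 fold change, and 95% intervals use t quantiles. Deviations from group means across 13122 genes correlated at 0.353, 0.397 and 0.193 between control and NFIAcKO libraries of replicate number 1, 2 and 3. Between unlike numbers the correlations were -0.327 to 0.0888. These deviations sum to 0 within a group of 3 and the labels name no pairs, so the correlations do not establish a pairing. The main fit did not use the replicate numbers. Lengths, GC content, transcripts and overlaps came from GENCODE M21 (GRCm38, the assembly that mm10 names), which matched all 70 rows. The trend was removed as natural splines of 5 degrees of freedom in exonic length and GC content, fitted without clustered histone genes. Alternatives were DESeq2 1.42.0, upper quartile scaling, other count filters, blocks, and leaving out each library. The rule for naming genes took called members, the 3 members of each type with the highest mean CPM, tested members of the Hist2, Hist3 and Hist4 loci, and up to 4 genes of each list by smallest p. Of the genes this rule took from marker lists and the NFI genes, those that did not pass are left out, except Cx3cr1. Cx3cr1 did not pass in the main fit (adjusted p = 0.0704) and is named for its call with the replicate block. Nfic passed (log2 fold change 0.37, adjusted p = 0.0343) and is named only here. Other members are named to account for all of them, and Slbp, Npat, H2afx and H3f3c were added for what they are known as. The members and lists were chosen with earlier results of these data known.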

Additional observations from a re-analysis of the deposited data

How the results depend on the processing

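The count of clustered histone genes that fell was 1 and of those that rose 0 under upper quartile scaling, DESeq2 (6 members with an adjusted p), no filter on low counts, a filter of at least 50 counts in 3 libraries (6 members tested), the replicate number as a block and the number in the file names as a block. It was 0 fallen with the length and GC trend removed, and 0 to 1 over the 6 fits that leave out a library, where 0 rose. The block on the replicate number, which treats libraries of the same number as a pair, gave 1353 rises and 1119 falls over all genes. The main fit gave 1392 and 1076, and no call of a member changed with the block. Among the genes that the naming rule took from the other lists, the block added calls of Cenpf, Cenpe and Cx3cr1 and changed no other. The median log2 fold change of the members was -0.33, -0.10 with the trend removed, and -0.59 to -0.22 when a library was left out. Over all genes, 676 rose and 686 fell with the trend removed, and leaving out a library gave 282 to 2703 rises and 139 to 2466 falls. Upper quartile scaling gave 1057 rises and 1434 falls, so that 42.4% of calls were higher against 56.4%. Cabin1 was at -0.018 with the trend removed, against 0.29. The causes of these shifts were not tested. For members with under 600 counts, depth limits what can be detected.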
